A study of Mus musculus with 2 samples.

Results

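Mir148a, Mir148b and Mir152 are the 3 mouse genes of the miR-148/152 seed family, and they were picked out of all microRNA genes by their symbols in the GENCODE M21 annotation. Each symbol matched 1 gene, so the family made up 3 of the 2202 genes in the tables. Short RNA of the left cerebral cortex was sequenced as microRNA-seq in 2 female mice of the hybrid strain B6CASTF1/J, each 36 days old. The labels mark them as biological replicates 1 and 2 of a single group (here mouse 1 and mouse 2), with separate animal numbers under a shared donor code. No treatment, transgene or other tissue is named, so levels are described in each animal and the animals are set against each other, with no condition to test.

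A microRNA is cut from a hairpin transcript as a short RNA that guides Argonaute proteins to messenger RNAs, mainly by pairing of its seed, bases 2 to 8 from the 5′ end. MicroRNAs with the same seed can bind overlapping sets of messenger RNAs. The miR-148/152 family is known for repressing the DNA methyltransferase Dnmt1, and miR-148a also for acting on the LDL receptor and the cholesterol exporter ABCA1 in liver. It is best known from liver, B cells and secretory tissue rather than from brain. Messenger RNAs were not measured in these libraries.

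The mature sequences are shown because the family is defined by them. RefSeq's table for GRCm38.p6 held both arms of all 3 hairpins. Written 5′ to 3′ with the seed in capitals, the 3p arms, which carry the family's name, were:
mmu-miR-148a-3p: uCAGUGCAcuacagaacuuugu
mmu-miR-148b-3p: uCAGUGCAucacagaacuuugu
mmu-miR-152-3p: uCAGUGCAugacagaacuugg

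These 3 arms had the seed CAGUGCA, and no other mature microRNA in that table had it at bases 2 to 8. Counted from 1 at the 5′ end, miR-148a-3p and miR-148b-3p differed at 2 of 22 bases, by C9U and U10C. From miR-148a-3p to miR-152-3p the changes over 21 bases were C9U, U10G and U20G. From miR-148b-3p to miR-152-3p they were C10G and U20G. The family members therefore differ just behind the seed, and miR-152-3p differs from the other arms near the 3′ end as well. The longest run shared by any pair of 3p arms was 12 bases, between miR-148a-3p and miR-148b-3p.

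The arms from the other side of the hairpins, again with bases 2 to 8 in capitals, show that the family does not share a seed on both arms:
mmu-miR-148a-5p: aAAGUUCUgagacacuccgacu
mmu-miR-148b-5p: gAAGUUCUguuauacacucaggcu
mmu-miR-152-5p: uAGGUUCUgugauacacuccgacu

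The 5p arms of Mir148a and Mir148b shared the seed AAGUUCU, which no other mature microRNA in the table had, whereas the 5p arm of Mir152 had AGGUUCU, shared with none. The deposited counts are per gene and do not separate the arms, so none of the levels given here can be assigned to a 3p or a 5p arm. The whole hairpins, with both mature arms in capitals, show how far the precursors differ outside the mature sequences:
Mir148a: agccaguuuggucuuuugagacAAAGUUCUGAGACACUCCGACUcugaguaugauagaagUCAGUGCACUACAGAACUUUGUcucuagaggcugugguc
Mir148b: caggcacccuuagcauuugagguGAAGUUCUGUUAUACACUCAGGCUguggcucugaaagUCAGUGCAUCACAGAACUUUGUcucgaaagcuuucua
Mir152: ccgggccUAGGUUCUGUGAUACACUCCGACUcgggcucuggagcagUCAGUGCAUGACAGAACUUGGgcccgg

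The hairpins of Mir148a and Mir148b were 99 and 97 bases long with a GC content of 45.5% and 45.4%, and that of Mir152 was shorter, at 73 bases, and richer in GC, at 61.6%. A read that fitted several places in the genome was given to no gene in these tables, so sequence shared between hairpins can lower a count. The longest run that Mir148a or Mir148b shared with another annotated hairpin was 15 bases, with each other, and that of Mir152 was 12 bases, with Mir148a. None of the 3 shared a run of 20 bases with another hairpin, which 23.8% of the 324 genes with a mean of at least 10 CPM did. CPM here is the count of a gene on its own strand per 1000000 such counts over all microRNA genes of the library. Copies elsewhere in the genome were not looked for.

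The family sits at 3 unlinked places in the mm10 assembly that resemble each other. Mir148a lies on chromosome 6 (51269812 to 51269910, minus strand) in no annotated gene. Mir148b lies on chromosome 15 (103285125 to 103285221, plus strand) in the first intron of Copz1, and Mir152 on chromosome 11 (96850393 to 96850465, plus strand) in the first intron of Copz2. Copz1 and Copz2 are paralogues that encode the zeta subunit of the coatomer, the coat of vesicles that travel from the Golgi apparatus to the endoplasmic reticulum. Both hairpins were on the strand of their host, 12411 bases behind the annotated start of Copz1 and 523 bases behind that of Copz2.

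All 3 hairpins had a gene of the Nfe2 family of transcription factors upstream on the opposite strand. It was Nfe2l3 at 163 kb from Mir148a, Nfe2 at 26.7 kb from Mir148b and Nfe2l1 at 20.4 kb from Mir152. No coatomer zeta gene was annotated near Mir148a. The nearest other microRNA gene was 352 kb, 65.2 kb and 213 kb away from Mir148a, Mir148b and Mir152, so none of them stood close to another microRNA gene.

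**Figure D1:**
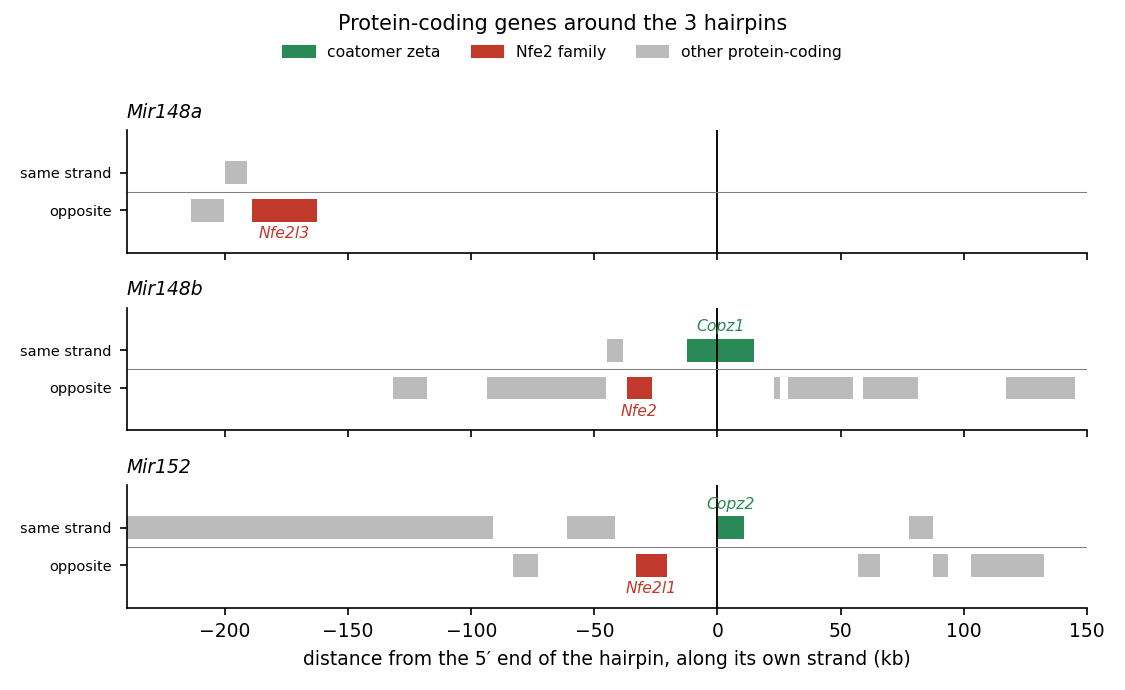
Protein-coding genes around Mir148a, Mir148b and Mir152 by distance in kb from the 5′ end of the hairpin (black line), with upstream to the left and genes on the hairpin's own strand above the grey line. Each hairpin has an Nfe2 family gene upstream on the opposite strand, and Mir148b and Mir152 lie inside Copz1 and Copz2.

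The libraries were of similar size, with 1930234 counts on the genes' own strands in mouse 1 and 1863876 in mouse 2. Reads that mapped to several places made up 50.9% and 51.2% of mapped reads and entered no gene. Of markers chosen for the cell types of cortex, the neuronal Mir139 and Mir128-1 were abundant (112269 ± 27908 and 16730 ± 633 CPM, SD, n = 2), while the 3 copies of the neuronal Mir124a, whose hairpins have runs of 20 bases in common, had 1 to 4 counts each. At this depth a count of 0 still allows 3 counts, or levels of 1.55 CPM (mouse 1) and 1.61 CPM (mouse 2). Floors and intervals cover counting error only, and PCR copies count as reads, since no molecular identifiers are named.

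The miR-148/152 family was read in both cortices at a low level. All 3 genes reached 10 CPM in both mice, which 304 of the 2202 genes (13.8%) did. Together they held 299 counts in mouse 1 and 322 in mouse 2, or 164 ± 12.6 CPM (SD, n = 2), which is 0.0155% and 0.0173% of all counts on the genes' own strands. The summed level of the family was 155 CPM in mouse 1, against 173 CPM in mouse 2, with a log2 ratio of mouse 1 over mouse 2 of -0.11 (95% counting interval -0.34 to 0.12). That interval holds 0, so a difference of the sum was not detectable at this depth. The cortex is a mixture of cells, and in such tissue fewer cells of a type and less RNA per cell cannot be told apart.

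Mir148b, the gene in Copz1, had 122 counts in mouse 1 and 156 in mouse 2, or 63.2 and 83.7 CPM (73.5 ± 14.5 CPM, SD, n = 2). Mir148a, the gene with no host, had 123 counts in mouse 1 and 90 in mouse 2, or 63.7 and 48.3 CPM (56.0 ± 10.9 CPM, SD, n = 2). Mir152, the gene in Copz2, had 54 counts in mouse 1 and 76 in mouse 2, or 28.0 and 40.8 CPM (34.4 ± 9.05 CPM, SD, n = 2). Mir148b and Mir152 were thus higher in mouse 2, and Mir148a was higher in mouse 1. By mean level the genes ranked 220 (Mir148b), 231 (Mir148a) and 258 (Mir152) of 2202. Of the 304 genes detected in both mice, 72.0% had a higher mean level than Mir148b and 84.5% a higher one than Mir152. The median of the 304 was 326 CPM.

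Mouse 2 showed the order Mir148b, Mir148a, Mir152, while in mouse 1 Mir148a and Mir148b differed by 1 count. The values of Mir148b (63.2 and 83.7 CPM) and of Mir148a (63.7 and 48.3 CPM) overlapped over the mice, so these neighbours in the order did not differ beyond their spread. Mir152 (28.0 and 40.8 CPM) lay below both other genes in each mouse. A read in these libraries is a whole short RNA, so the levels were not divided by hairpin length. Per kilobase of hairpin the order was the same, at 757 for Mir148b, 566 for Mir148a and 471 CPM per kilobase for Mir152, but in mouse 2 Mir152 (559) then stood above Mir148a (488).

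Strand made no difference to the counts of the family. On the opposite strand all 3 genes had 0 counts in both mice, and the counts taken without regard to strand were equal to those on the gene's own strand in every case.

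**Figure D2:**
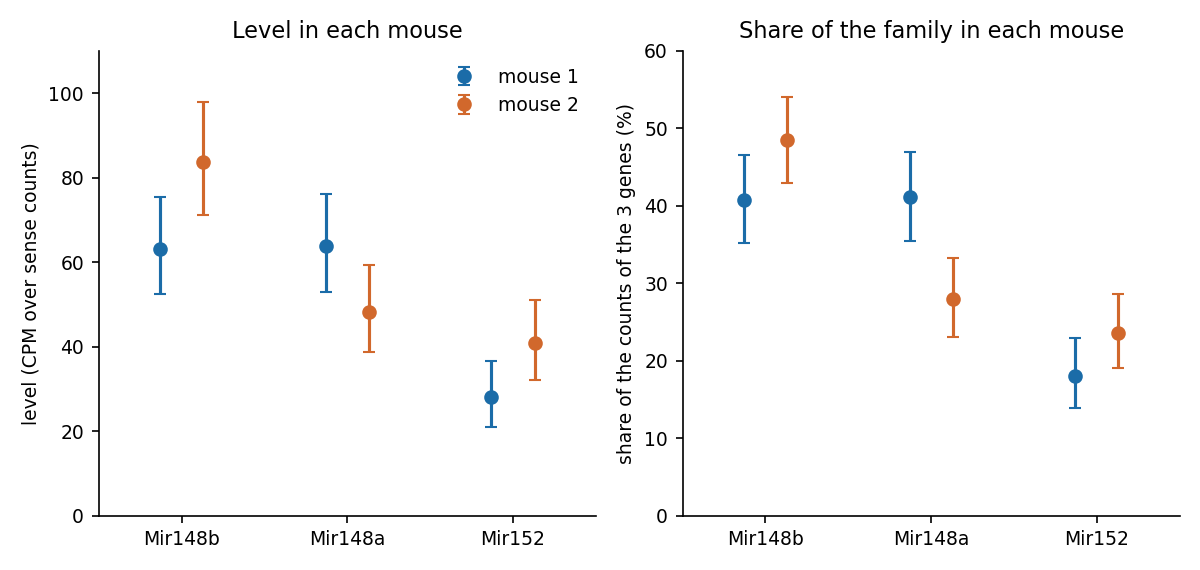
Levels in CPM (left) and shares of the summed counts of the 3 genes in percent (right) in mouse 1 and mouse 2, with exact 95% counting intervals. Mir148b and Mir152 stand higher in mouse 2, and Mir148a stands higher in mouse 1, on both scales. The 3 shares of a mouse are parts of the same sum and come from the same counts as the levels, so they are not separate evidence.

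Within a library the genes can be set against each other without any scaling. Mir148a made up 41.1% of the family's counts in mouse 1 and 28.0% in mouse 2, with Clopper-Pearson 95% intervals of 35.5% to 46.9% and of 23.1% to 33.2% that do not overlap. Mir148b made up 40.8% in mouse 1 (35.2% to 46.6%) and 48.4% in mouse 2 (42.9% to 54.1%). Mir152 made up 18.1% in mouse 1 (13.9% to 22.9%) and 23.6% in mouse 2 (19.1% to 28.6%). The intervals of Mir148b and of Mir152 overlapped between the mice, and of the 3 shares that of Mir148a lay furthest apart.

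The ratio of the hosted genes to each other had intervals that overlapped widely between the animals. Mir148b had 2.26 counts for each count of Mir152 in mouse 1 (95% counting interval 1.63 to 3.17) and 2.05 in mouse 2 (1.55 to 2.74). Mir148a had 1.01 counts for each of Mir148b in mouse 1 (0.778 to 1.31) and 0.577 in mouse 2 (0.440 to 0.753), and these intervals do not overlap. Mir148a had 2.28 counts for each of Mir152 in mouse 1 (1.64 to 3.20) and 1.18 in mouse 2 (0.863 to 1.63). That pair's intervals nearly met, and in mouse 2 the interval held equal levels.

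**Figure D3:**
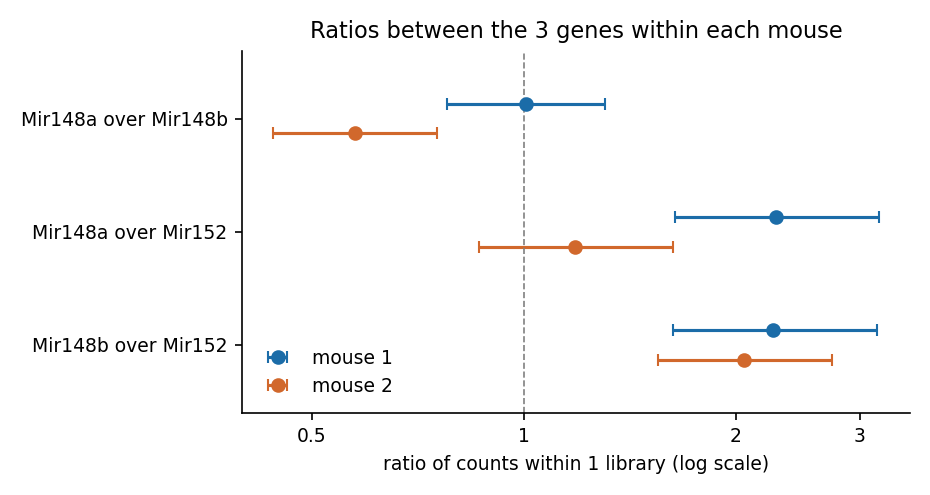
Ratio of the counts of each pair of genes within mouse 1 and within mouse 2 on a log axis, with exact 95% counting intervals and a dashed line at equal counts. Mir148b over Mir152 lies near 2 in both mice, while both ratios with Mir148a on top lie lower in mouse 2.

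None of the 3 genes was called different between the mice, where a call needed a fold of 2 and an adjusted p under 0.05 in an exact binomial test over the 324 genes with a mean of at least 10 CPM. By that rule 63 of the 324 genes (19.4%) were called, 17 higher in mouse 1 and 46 higher in mouse 2, and of the 117 genes from 10 to under 100 CPM, the range that holds the family, 27 (23.1%) were called. Without the fold of 2, 242 of the 324 genes (74.7%) had an adjusted p under 0.05 in that exact binomial test. That test compares 2 libraries for counting error and no condition, and animal and library preparation cannot be told apart. The log2 ratio of Mir148a, mouse 1 over mouse 2, was 0.45 (95% counting interval 0.04 to 0.86, a 1.36-fold difference, adjusted p = 0.0384, two-sided exact binomial test). For Mir148b it was -0.36 (-0.71 to -0.0060, 1.28-fold, adjusted p = 0.0551, same exact test), and for Mir152 it was -0.50 (-1.03 to 0.03, 1.41-fold, adjusted p = 0.0708, same exact test).

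These differences lay a little below the middle of those of all microRNA genes tested. Over the 324 genes the median absolute log2 ratio was 0.53, a 1.44-fold difference, and over the 117 genes from 10 to under 100 CPM it was 0.62, a 1.53-fold difference. Further apart than Mir148a, Mir148b and Mir152 were 57.4%, 66.7% and 53.4% of the 324 genes. The side of 0.05 on which an adjusted p fell depended on the settings. With total counts in place of TMM factors, the exact binomial test gave adjusted p = 0.0620 for Mir148a, 0.0315 for Mir148b and 0.0478 for Mir152. With TMM factors, the exact binomial test gave adjusted p = 0.0636 for Mir148a and 0.0327 for Mir148b in unstranded counts. With a filter of 1 CPM or none in place of 10 CPM, that for Mir148a was 0.0606 or 0.0818 by the same exact test. Over all settings that tested them, the adjusted p ran from 0.0384 to 0.0818 for Mir148a, from 0.0315 to 0.116 for Mir148b and from 0.0478 to 0.149 for Mir152 (exact binomial tests). The direction of each gene was the same under each setting tried.

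Cell type markers were also set side by side. The neuronal Mir139 stood at 132003 CPM in mouse 1, against 92535 CPM in mouse 2 (log2 ratio 0.56), under the fold of 2, while Mir128-1 stood at 16283 CPM in mouse 1, against 17178 CPM in mouse 2 (log2 ratio -0.03). The 3 red blood cell genes Mir144, Mir451a and Mir486 summed to 742 CPM in mouse 1, against 153 CPM in mouse 2, with none at 0. All 3 had more CPM in mouse 1, as Mir148a and the neuronal Mir139 had. Mir144 and Mir451a were called while Mir486 was not, which is 2 of 3 beside the 19.4% over all 324 genes. The endothelial Mir126a stood at 11276 CPM in mouse 1, against 22380 CPM in mouse 2, and the oligodendrocyte genes Mir219a-2 and Mir338 summed to 2746 CPM in mouse 1, against 5119 CPM in mouse 2, both with more in mouse 2, as for Mir148b and Mir152, though under the fold of 2 for each gene. The choroid plexus gene Mir204 stood at 489 CPM in mouse 1, against 495 CPM in mouse 2. Mir128-1, Mir486 and Mir219a-2 have runs of 20 bases in common with other hairpins, so their counts are uncertain. A log2 ratio above 0 was found for 50% of the 324 tested genes, so sharing a direction with a marker is common. The part of these cell types in the family's differences was not tested.

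**Figure D4:**
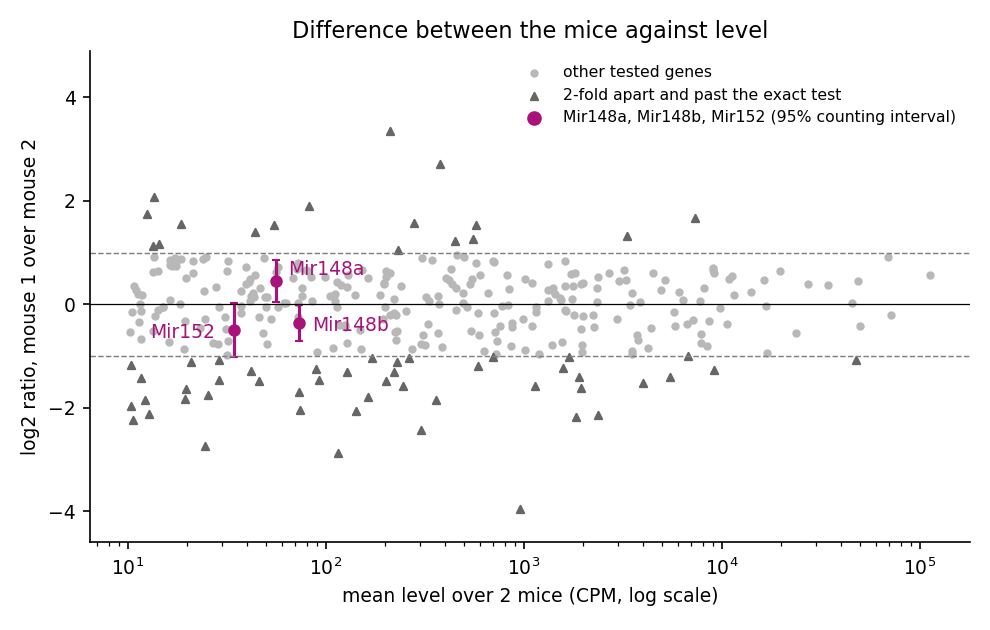
Log2 ratio of mouse 1 over mouse 2 against mean level in CPM (log axis) for the 324 tested genes, with dashed lines at a fold of 2 and triangles for the 63 genes called. Mir148a lies above 0 and Mir148b and Mir152 below it, all 3 between the dashed lines.

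The genes nearest to each member in log2(CPM + 1) over the 2 mice were found by distance, with 2 named for each. Nearest to Mir148a were Mir1188 (66.8 CPM in mouse 1, against 45.1 CPM in mouse 2, distance 0.12) and Mir539 (70.5 and 44.0 CPM, distance 0.19), both on chromosome 12. Nearest to Mir148b were Mir3059 (65.3 CPM in mouse 1, against 79.9 CPM in mouse 2, distance 0.08) and Mir24-2 (71.5 and 73.0 CPM, distance 0.26). Nearest to Mir152 were Mir29b-1 (25.9 CPM in mouse 1, against 37.0 CPM in mouse 2, distance 0.17) and Mir33 (23.8 and 40.2 CPM, distance 0.22). With 2 animals this likeness rests on 2 values per gene and is a description only. No member of the family was among the 2 nearest genes of another. Mir24-2 and Mir29b-1 have runs of 20 bases in common with other hairpins, so their counts are uncertain.

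The letters of the family's seed also stand at the very start of another group of microRNAs. Among RefSeq's mature microRNAs, 7 began with CAGUGCA at bases 1 to 7, so their own seed is shifted by 1 base. The 3 of them whose genes were detected are shown, with the shared letters in capitals:
mmu-miR-130a-3p: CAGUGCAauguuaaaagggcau
mmu-miR-130b-3p: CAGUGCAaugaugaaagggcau
mmu-miR-301a-3p: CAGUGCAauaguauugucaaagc

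These genes summed to 2004 CPM in mouse 1, against 1503 CPM in mouse 2 (1754 ± 354 CPM, SD, n = 2), above the 164 ± 12.6 CPM of the miR-148/152 family in each mouse. Mir130a held most of that sum, at 1431 ± 102 CPM. Mir130b stood at 111 ± 8.07 CPM. Mir301 was the only called gene of the 3, beside the 19.4% called over all 324 genes. It stood at 384 CPM in mouse 1, against 39.2 CPM in mouse 2 (log2 ratio 3.34, 95% counting interval 2.99 to 3.71). The other 4, Mir130c, Mir721, Mir6341 and Mir6389, had 0 counts in both mice.

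Other microRNAs known for acting on DNA methyltransferase or on cholesterol transcripts ranged from levels below the family to far above it. Of 7 genes reported to act on DNA methyltransferases (Mir29a, Mir29b-1, Mir29b-2, Mir29c, Mir185, Mir342 and Mir126a), all 7 were detected and their median level was 1748 CPM. Mir126a (16828 ± 7851 CPM) and Mir29a, which targets Dnmt3a and Dnmt3b (7870 ± 2392 CPM), were the highest, and both lay under the fold of 2. Mir126a is also the endothelial gene above, with the same counts. Mir29c, with the same seed as Mir29a, was the only called gene, 1 of 7 beside the 19.4% over all 324 genes, with 555 CPM in mouse 1, against 1716 CPM in mouse 2 (2.99-fold lower in mouse 1). Its hairpin and those of Mir29b-1 and Mir29b-2 have runs of 20 bases in common with others, which makes their counts uncertain. The median log2 ratio of the list was -0.58, beside 0.0038 over all 324 genes. Mir29b-1 (31.5 ± 7.86 CPM) was the gene of this list nearest in level to Mir152.

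Of 9 genes reported to act on cholesterol and lipoprotein transcripts (Mir33, Mir128-1, Mir128-2, Mir130b, Mir301b, Mir122, Mir27b, Mir144 and Mir758), 7 were detected and the median level of the 9 was 43.9 CPM, within the range of the 3 family members. The highest were Mir128-1 and Mir128-2 (3505 ± 299 CPM). Mir33, which lies in an intron of the sterol regulator Srebf2 and represses Abca1, stood at 32.0 ± 11.6 CPM, and Mir122, the leading microRNA of liver, at 42.9 ± 3.78 CPM. Of the 7 tested, 2 were called, beside the 19.4% over all 324 genes. They were Mir144, with 63.2 CPM in mouse 1, against 24.7 CPM in mouse 2 (2.65-fold higher in mouse 1), and Mir27b, with 1096 CPM in mouse 1, against 2307 CPM in mouse 2 (2.04-fold lower in mouse 1). Mir144 is also a red blood cell gene above, so its call here is the same result and not separate evidence. Such shared runs occur in 4 of the 9 hairpins, those of Mir128-1, Mir128-2, Mir27b and Mir758. The median log2 ratio over the 7 tested genes was 0.20, beside 0.0038 over all 324 genes.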

How the data were processed

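Short RNA of 1 group of 2 mice was measured. The deposited values are whole-number read counts per gene on mm10 with GENCODE M21, per the submitters' README notes; the aligner, the counter and any trimming are not given in the sources used here. Their 3 columns carry no names and were read, from their values, as unstranded, own-strand and opposite-strand counts. Lines that name no gene (72.7% of reads in mouse 1, 70.2% in mouse 2, of 7082096 and 6253481) stayed out of library sizes.

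CPM was computed from own-strand counts. A gene's counts in the mice were tested with a two-sided exact binomial test (scipy 1.17.1) against edgeR 4.0.16 TMM library sizes (factors 0.983 and 1.02), adjusted by Benjamini-Hochberg over 324 genes at 10 CPM or more on average; edgeR's quasi-likelihood test has no residual degrees of freedom here. Its common biological coefficient of variation was 0.399. The exact test was checked only on simulated counts that held counting error, its own assumption, so that check does not cover spread between animals. Alternatives were total counts, DESeq2 1.42.0 size factors, unstranded counts, other filters and a GC correction.

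Named besides the members were the 2 genes nearest to each in log2(CPM + 1), the 2 highest and any called gene of each list; Mir122, Mir33, Mir29b-1 and the genes starting with CAGUGCA were named after their values were seen. Members and lists were chosen with earlier results of these data known. Host genes and positions are from GENCODE M21, sequences from RefSeq. The labels give separate animals, with 1 library each.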

Additional observations from a re-analysis of the deposited data

How the results depend on the processing

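The direction of all 3 log2 ratios, and the absence of a call, held with total counts, DESeq2 size factors, unstranded counts, filters of 1 CPM or none and a linear GC trend removed; at 100 CPM or more none of the 3 genes was tested. Removing the GC trend changed the ratios only, and the p-values of the exact binomial test were kept from the counts without it. Ratios of mouse 1 over mouse 2 ran from 0.40 to 0.58 for Mir148a, from -0.41 to -0.23 for Mir148b and from -0.74 to -0.49 for Mir152. With 100 CPM as the filter, 36 of 207 genes were called in place of 63 of 324, since fewer genes were tested. Per 1000000 mapped reads, a larger denominator, the levels were 22.7 for Mir148a, 29.8 for Mir148b, 14.0 for Mir152 and 66.5 for the family sum. In unstranded counts the family sum was 177 CPM, with the same counts over a smaller total. Leaving out each mouse gave 48.3 to 63.7 CPM for Mir148a, 63.2 to 83.7 for Mir148b, 28.0 to 40.8 for Mir152 and 155 to 173 for the sum. Of the 3 pairs of genes, 2 to 3 then kept their order, since without mouse 2 Mir148a led Mir148b by 1 count. No paired analysis was possible because the samples form a single group. Counts of 54 to 156 per gene limit the precision, and 2 animals give no estimate of variation between mice beyond their own difference.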
